A study of Mus musculus with 3 samples.

Results

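The S100 genes code for small calcium-binding proteins that act inside the cell and, once released, as signals of tissue damage. The 6 S100 genes described here are S100a4, S100a6, S100a8, S100a9, S100a10 and S100a11, chosen by name from the 14148 genes and the 11 S100 genes listed in the count tables. CD45+ cells, i.e. cells carrying the pan-leukocyte surface marker, had been sorted from the muscularis externa of the small intestine, the outer muscle layer of the gut wall. Wild-type C57BL/6J mice of 12 weeks of age were used, either naïve (the library labelled day 0) or at 24 h or 72 h after intestinal manipulation, a surgical handling of the gut that inflames this layer. There was 1 library of pooled mice for each time point, 3 in all.

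S100 proteins bind calcium and then bind partner proteins. S100a8 and S100a9 pair into calprotectin, a metal-binding, antimicrobial complex that fills the cytoplasm of neutrophils, is also made by circulating monocytes and is lost as these become tissue macrophages (Mφs). Once outside the cell, calprotectin can signal through Tlr4 and Ager. S100a10 (p11) is the partner of annexin A2, S100a11 binds annexin A1, S100a4 binds the heavy chain of non-muscle myosin, and S100a6 (calcyclin) binds Cacybp.

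The naïve library held 652 cells and 1865221 UMIs, the 24 h library 2211 cells and 10542346 UMIs, and the 72 h library 1239 cells and 5246731 UMIs. UMIs are tags that count captured RNA molecules. Median depth was 2134.5, 4669 and 3295 UMIs per cell, respectively. Levels are given as CPM: for a group of cells in a library, all UMIs of the gene are added up and scaled to a total of 1000000 UMIs. Ranges in parentheses are exact 95% intervals that cover counting error only. With 1 library per time point no test between time points was possible, the time point and the library cannot be told apart, and only groups of at least 20 cells in a library were compared. Cells were clustered without the S100 genes and the clusters were called neutrophil-, monocyte/Mφ-, dendritic cell (DC)-, T cell/innate lymphoid cell (ILC)- or B cell-like from marker genes that include no S100 gene. 3 cell barcodes were shared between libraries, 1 for each pair of libraries.

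All 6 genes lie on mouse chromosome 3 (GRCm38, GENCODE vM21) in 2 stretches. S100a4 (ENSMUSG00000001020, 90603771-90606045, plus strand), S100a6 (ENSMUSG00000001025, 90612882-90624181, plus), S100a8 (ENSMUSG00000056054, 90668978-90670035, plus) and S100a9 (ENSMUSG00000056071, 90692632-90695721, minus) lie within 91.951 kb. S100a11 (ENSMUSG00000027907, 93520488-93526287, plus) and S100a10 (ENSMUSG00000041959, 93555080-93564643, plus) lie within 44.156 kb further along. S100a4 overlaps the annotated gene Gm42674 on the same strand, so part of its reads could belong to either gene.

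Because S100a8 and S100a9 were high in the same cells, the bases upstream of each transcript start are shown, from 40 to 11 bases before the RefSeq start on GRCm38.p6, read 5′ to 3′ on the strand of the gene. S100a10 has no entry. Capitals mark the motifs found, each searched on both strands over the 100 bases before the start. The motifs were the core promoter box TATAAA, the AP-1 motif TGANTCA, the C/EBP motif TTGCNNAA and the PU.1 motif GAGGAA, which reads TTCCTC on the opposite strand.
S100a4 (chr3:90603730-90603759): ctggcagggTATAAAtaggtcagattgttg
S100a6 (chr3:90612854-90612883): ggacactgctctcgggctggcagaaggttc
S100a8 (chr3:90669031-90669060): agctTTCCTCTATAAAagcagctgacactt
S100a9 (chr3:90695732-90695761): atcttccccgagataaccatgtatctaaca
S100a11 (chr3:93520456-93520485): ccTGAGTCAggctgaggggcgggacccgga
S100a4 and S100a8 each held a TATAAA, at -31 to -26 and -30 to -25 from the start. S100a8 also held a PU.1 motif at -36 to -31, next to its TATAAA, and S100a11 an AP-1 motif at -38 to -32. No motif searched was found in the 100 bases before S100a6 or S100a9. Of all 32851 promoters in the same table, 5.56% held TATAAA, 2.73% the AP-1 motif, 3.43% the C/EBP motif and 9.82% the PU.1 motif over the same length. GENCODE starts S100a8 further upstream than RefSeq, so the bases shown for S100a8 lie within the gene as GENCODE annotates it. These matches describe letters only.

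S100a8 and S100a9 were by far at their highest in neutrophil-like cells. In this class S100a8 was 36834 CPM (36237-37438) in 395 cells at 24 h and 58768 CPM (57498-60059) in 105 cells at 72 h. S100a9 was 31069 CPM at 24 h and 38116 CPM at 72 h. Together, the calprotectin pair made up 6.79% of all UMIs of neutrophil-like cells at 24 h and 9.69% at 72 h. The 12 neutrophil-like cells of the naïve library, too few to compare, showed 49100 CPM of S100a8 and 36760 CPM of S100a9. Compared with monocyte/Mφ-like cells of the same library, the S100a8 level of neutrophil-like cells was 55.2-fold higher at 24 h (53.6-56.9) and 133-fold higher at 72 h (126-141).

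Among the classes, S100a11 and S100a6 were also highest in neutrophil-like cells, whereas S100a4 and S100a10 were low there. S100a11 was 5123 CPM at 24 h and 10290 CPM at 72 h, and S100a6 was 3671 and 6120 CPM. S100a4 was only 104 CPM at 24 h and 50.6 CPM at 72 h, and S100a10 124 and 72.3 CPM. In the naïve neutrophil-like cells S100a11 was 10776 CPM and S100a6 5040 CPM, whereas 0 UMIs of S100a4 or S100a10 were counted among 11507 UMIs, which allows up to 261 CPM (3 counts). Compared with monocyte/Mφ-like cells at 24 h, neutrophil-like cells had 0.0954 times the S100a4 level (0.0684-0.13) and 0.117 times the S100a10 level (0.0862-0.154).

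Neutrophil-like cells of the 72 h library carried more of 4 S100 genes than those of the 24 h library. The 72 h over 24 h ratio of levels was 2.01 for S100a11 (1.88-2.15), 1.67 for S100a6 (1.53-1.82), 1.60 for S100a8 (1.55-1.64) and 1.23 for S100a9 (1.19-1.27). For S100a4 (0.486, 0.184-1.09) and S100a10 (0.581, 0.262-1.16) the interval included 1, with 7 and 10 UMIs at 72 h. Past a 2-fold ratio, 1 member was higher (S100a11) and 1 lower (S100a4), against 9% of 2601 genes higher and 11.1% lower, so the count is close to that of all genes. The median log2 ratio was 0.48 over the 6 members and 0.04 over all genes tested. The summed level of the 12 neutrophil markers in the tables was 13039 CPM at 24 h and 13700 CPM at 72 h.

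The neutrophil-like class was made of 2 clusters, of which only the larger had enough cells in both libraries for a ratio. In the cluster led by Retnlg and Gm5483 (346 cells at 24 h, 89 at 72 h), S100a8 was 31822 CPM at 24 h and 59008 CPM at 72 h, a ratio of 1.85 (1.80-1.91). S100a11 in the same cluster was 4954 and 11410 CPM, a ratio of 2.30 (2.14-2.48), and S100a9 26741 and 38441 CPM, a ratio of 1.44 (1.39-1.49). In the cluster led by Acod1 and Il1f9, S100a8 was 59666 CPM in 49 cells at 24 h and 57685 CPM in 16 cells at 72 h, the latter below the 20 cells needed for a ratio. S100a11 there was 5895 and 5248 CPM, and S100a6 4865 and 8547 CPM. S100a9 there was 50781 CPM at 24 h and 36654 CPM at 72 h, where 1 cell held 29.2% of its UMIs. Without the cell with the most S100a9 UMIs it was 46787 CPM at 24 h and 29397 CPM at 72 h.

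Individual neutrophil-like cells varied widely in the calprotectin pair. At 24 h the pair made up between 0% and 29.4% of the UMIs of a cell, with a median of 3.16% (interquartile range 0.628% to 7.89%). At 72 h the range was 0% to 30.2% and the median 6.62% (2.06% to 13.7%). At 24 h, 122 of 395 cells (30.9%, 26.4%-35.7%) had less than 1% of their UMIs from the pair, compared with 17 of 105 (16.2%, 9.72%-24.7%) at 72 h.

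At 24 h, neutrophil-like cells poor in the pair were also poorer in Retnlg and S100a6 but not in Il1b, the gene of the inflammatory cytokine IL-1β. Retnlg, a secreted factor of neutrophils, was 414 CPM (304-550) in the 122 cells under 1% and 4011 CPM (3780-4252) in the others. Other neutrophil genes had overlapping intervals, with Cxcr2 at 405 against 571 CPM, Csf3r at 792 against 974 CPM and Mmp9 at 1364 against 1117 CPM. S100a6 was 1927 CPM against 4378 CPM, S100a11 3396 CPM against 5823 CPM, and Il1b 11852 CPM (11228-12502) against 11108 CPM (10721-11505). Depth was alike, with a median of 890.5 UMIs per cell in the poor and 903 in the other cells. At 72 h, S100a11 did not follow the pair, with 10068 CPM (8677-11619) in the 17 poor cells and 10324 CPM (9757-10916) in the others.

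**Figure D1:**
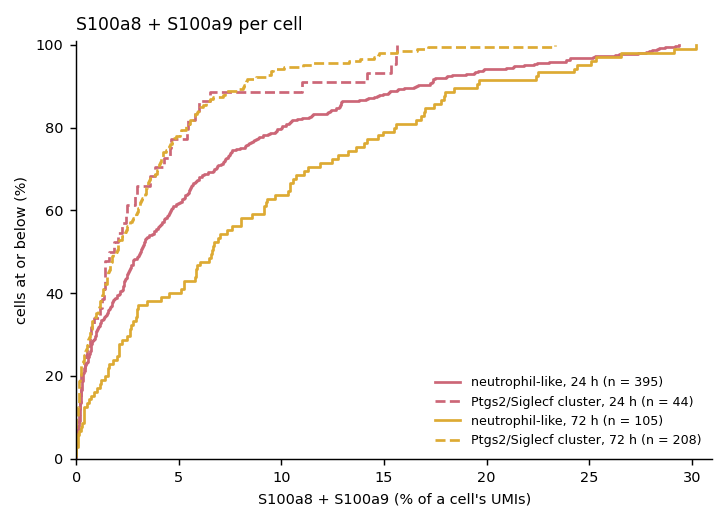
Cumulative distribution over cells of the share of a cell's UMIs that came from S100a8 and S100a9 (x axis, %), with the percent of cells at or below each share on the y axis, for neutrophil-like cells (solid) and the Ptgs2/Siglecf cluster (dashed) at 24 h (red) and 72 h (yellow). The median of neutrophil-like cells was 3.16% at 24 h and 6.62% at 72 h, and that of the Ptgs2/Siglecf cluster 1.71% and 1.95%.

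A cluster led by Ptgs2, Mmp9 and Siglecf, which did not pass the naming rule, formed the second population rich in calprotectin. It held 15 naïve cells, 44 cells at 24 h and 208 cells at 72 h. S100a8 was 21511 CPM at 24 h and 18691 CPM at 72 h, and S100a9 14802 and 15046 CPM. At 72 h over 24 h, 0 members were at least 2-fold higher and 1 lower (S100a4, 6 and 15 UMIs), against 22.9% and 19.4% of 3524 genes. S100a6 set the cluster further apart from neutrophil-like cells than the pair did. At 72 h, neutrophil-like cells had 7.37 times its S100a6 level (6.26-8.71), 4.07 times its S100a11 level (3.68-4.5), 3.14 times its S100a8 level (3.03-3.27) and 2.53 times its S100a9 level (2.42-2.65). Neutrophil markers summed to 8093 CPM at 24 h and 5432 CPM at 72 h in this cluster, and 4 eosinophil markers to 211 and 383 CPM. In neutrophil-like cells the neutrophil markers summed to 13039 and 13700 CPM and the eosinophil markers to 83.8 and 79.5 CPM. Epx and Il5ra, further eosinophil markers, were not among the genes counted.

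**Figure D2:**
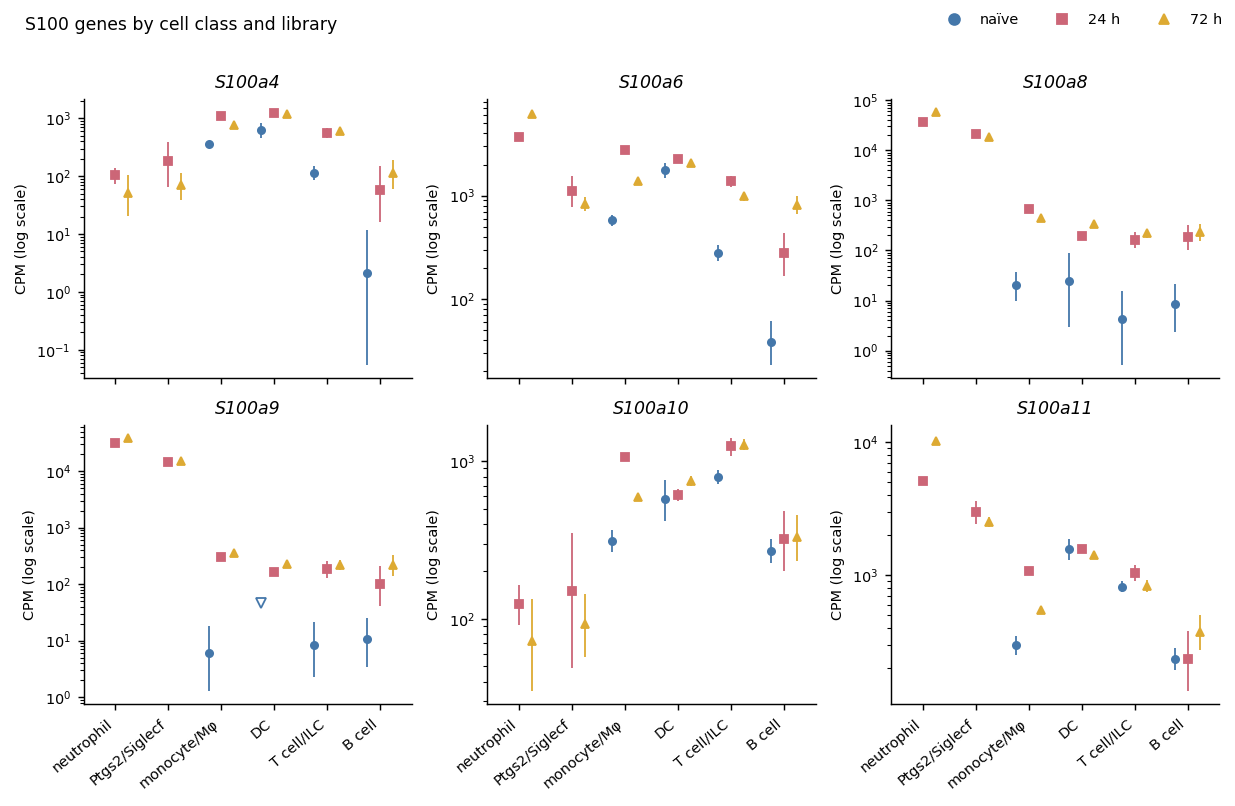
Level of each S100 gene (CPM, log axis, with its own scale in each panel) in 6 groups of cells of the naïve (blue circle), 24 h (red square) and 72 h (yellow triangle) libraries, shown where a group has at least 20 cells. Lines are exact 95% Poisson intervals and the open triangle marks the upper bound for 0 UMIs of S100a9 in naïve DC-like cells, and S100a8 and S100a9 are highest in neutrophil-like cells at up to 58768 CPM.

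S100a8 and S100a9 in T cell/ILC-like and B cell-like cells, which are not known to make calprotectin, gauge the free RNA that droplets pick up. In these lymphocyte-like cells S100a8 was 6.35 CPM (2.33-13.8) in 413 naïve cells, 171 CPM (124-230) in 103 cells at 24 h and 225 CPM (186-268) in 179 cells at 72 h. S100a9 was 9.53, 163 and 219 CPM. The S100a8 level of lymphocyte-like cells was 0.464% of that of neutrophil-like cells at 24 h and 0.382% at 72 h, and 8.41% and 8.42% of the level over all cells of the library. Of the neutrophil markers Retnlg was 7.77 CPM and 5.57 CPM in these cells, and 0 UMIs of Cxcr2, the receptor that guides neutrophils, were counted.

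The share of lymphocyte-like cells with at least 1 S100a8 UMI was 1.45% of naïve cells, 33.0% of 24 h cells and 39.7% of 72 h cells, at median depths of 1966, 2147 and 2543 UMIs. Thinned to 500 UMIs per cell, which left out 0 cells, it was 0.484% (0.0587%-1.74%), 8.74% (4.07%-15.9%) and 12.3% (7.87%-18%). The corresponding thinned shares of neutrophil-like cells were 82.0% at 24 h and 92.4% at 72 h (unthinned 86.3% and 93.3%). Almost every S100a8-positive lymphocyte-like cell held 1 or 2 UMIs. 1 cell of 103 at 24 h and 6 of 179 at 72 h held 3 or more, and 1 cell at 72 h held 28, without which the 72 h level was 174 CPM.

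In DC-like cells at 24 h the levels of S100a8 and S100a9 overlapped those of lymphocyte-like cells. S100a8 was 24.9 CPM in naïve cells, 192 CPM (163-225) at 24 h and 339 CPM at 72 h. 1 cell with 165 S100a8 UMIs carried much of the 72 h value, which was 163 CPM without it. S100a9 in DC-like cells was 0 CPM, 163 CPM (136-193) and 230 CPM (200-263), the last of which was 169 CPM without the same cell. The thinned share of DC-like cells with S100a8 was 11.4% (6.36%-18.4%) at 24 h and 7.46% (3.64%-13.3%) at 72 h, and that with S100a9 was 8.13% and 12.7%. Against lymphocyte-like cells (8.74% and 12.3% for S100a8, 8.74% and 8.38% for S100a9) these shares lay on either side, with overlapping intervals.

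In monocyte/Mφ-like cells S100a8 was 20.3 CPM in naïve cells, 667 CPM (650-684) at 24 h and 441 CPM (418-465) at 72 h, and S100a9 6.09, 304 and 350 CPM. 1 cell at 72 h held 378 S100a8 and 260 S100a9 UMIs, and without it the levels were 320 CPM for S100a8 and 267 CPM for S100a9. At 24 h S100a9 was 292 CPM without the cell with the most S100a9 UMIs. The thinned share with S100a8 was 0% of 139 naïve cells, which allows up to 2.62% (exact interval), 18.1% (16.2%-20.1%) at 24 h and 14.2% (11.5%-17.3%) at 72 h (unthinned 5.76%, 68.9% and 64.6%). At 24 h it lay above the interval of lymphocyte-like cells, whereas at 72 h the intervals overlapped. Median depths of the monocyte/Mφ-like cells were 3315, 5931 and 5320 UMIs.

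Most monocyte/Mφ subsets of the 24 h library lay above the lymphocyte-like level of the pair (171 CPM of S100a8 and 163 CPM of S100a9). The cluster led by Ltc4s and Klk8 had 788 CPM of S100a8 (742-836) and 535 CPM of S100a9 (497-574), and 629 and 458 CPM without its cell with the most UMIs of the gene. A low-depth cluster led by Hnrnpa0 and Gm42418 had 441 and 334 CPM, and 376 and 235 CPM without such a cell. A cluster led by H2-DMb1 and H2-Ab1 had 376 and 276 CPM, and 313 and 201 CPM without such a cell. That S100a9 level lay within the interval of lymphocyte-like cells (118-221). Fabp5+ cells had 274 CPM (256-293) and 219 CPM (203-236), the S100a9 interval of which also overlapped that of lymphocyte-like cells. At 72 h, against 225 and 219 CPM in lymphocyte-like cells, Timp2+ Mφs had 599 CPM of S100a8 (539-664) and 524 CPM of S100a9 (468-584). Without their cell with the most UMIs of the gene these were 467 and 408 CPM. Cd206+ Mφs had 273 and 241 CPM, with intervals that overlapped those of lymphocyte-like cells. The H2-DMb1/H2-Ab1 cluster had 819 and 573 CPM at 72 h, but 179 and 133 CPM without its cell with the most UMIs of the gene.

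The balance within the pair was described as the share of S100a8 in the UMIs of S100a8 and S100a9. This share compares cell groups and is not a molar ratio, and where the UMIs came from was not tested. In neutrophil-like cells it was 54.2% (53.6%-54.8%) at 24 h and 60.7% (59.8%-61.5%) at 72 h. In lymphocyte-like cells it was 51.2% (40.1%-62.1%) at 24 h and 50.6% (44.1%-57.1%) at 72 h, the latter below neutrophil-like cells with no overlap of the intervals. In DC-like cells it was 54.1% (48.2%-59.9%) and 59.6% (55.3%-63.8%), and in the Ptgs2/Siglecf cluster 59.2% and 55.4%. At 72 h, 1 DC-like cell held 52.5% of the S100a8 and 27.7% of the S100a9 UMIs of its class. The 72 h share of DC-like cells was lower without it. Within monocyte/Mφ-like cells the share was 55.5% (53.0%-58.1%) in Fabp5+ cells at 24 h, 53.2% (49.3%-57.0%) in Cd206+ Mφs and 53.3% (49.5%-57.1%) in Timp2+ Mφs at 72 h.

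Ly6c+ monocyte-like cells had the highest share among groups of at least 20 cells at 24 h, with 82.8% S100a8 (81.5%-84.0%). They held 2969 UMIs of S100a8 and 616 of S100a9 in 325 cells. Ly6c+ cells express Ly6c2, Plac8 and Chil3, which mark monocytes newly arrived from the blood. Their S100a8 level was 1368 CPM (1319-1418), 5.0 times that of Fabp5+ cells (4.63-5.40), whereas their S100a9 level of 284 CPM was 1.30 times that of Fabp5+ cells (1.16-1.45). The thinned share of Ly6c+ cells with S100a8 was 31.4% (26.4%-36.7%) and with S100a9 10.8% (7.62%-14.7%), against 8.74% of lymphocyte-like cells for either gene. Among the other groups of at least 20 cells at 24 h, the nearest was the small Mmp12/Cxcl3 cluster with 75% (70.1%-79.4%) in 40 cells. In this cluster 1 cell held 42.4% of the S100a8 and 65.9% of the S100a9 UMIs, so its S100a8 share was higher without that cell. The levels without it were 831 CPM of S100a8 and 164 CPM of S100a9. At 72 h the Hnrnpa0/Gm42418 cluster showed 80% (61.4%-92.3%), from 30 UMIs of the pair in 22 cells. The 26 Ly6c+ cells of the 72 h library held 22 UMIs of S100a8 and 21 of S100a9, a share of 51.2% (35.5%-66.7%), and their S100a8 level was 0.104 times that at 24 h (0.065-0.158).

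**Figure D3:**
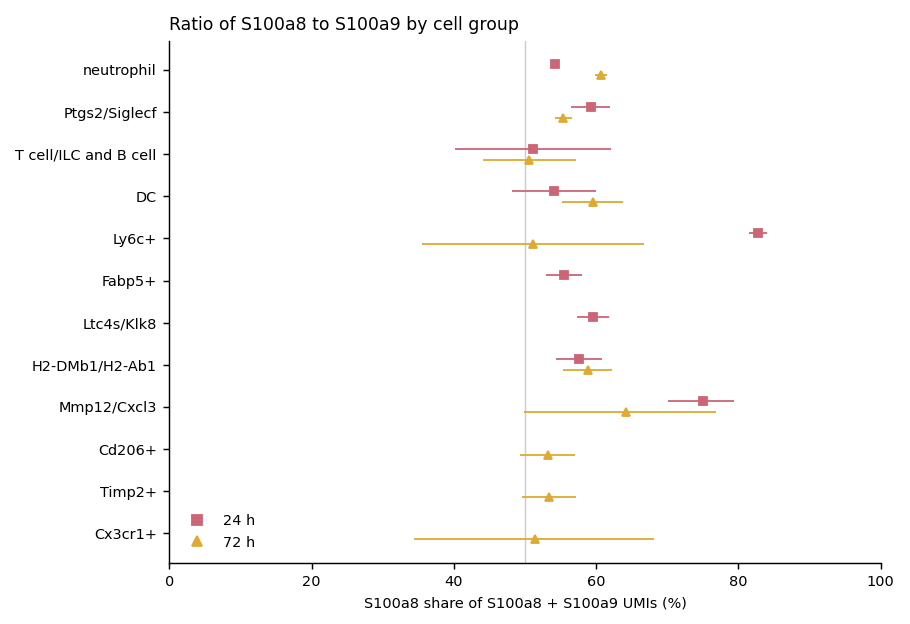
Share of S100a8 in the summed UMIs of S100a8 and S100a9 (x axis, %) in groups of at least 20 cells at 24 h (red squares) and 72 h (yellow triangles), with exact 95% Clopper-Pearson intervals, and a grey line at 50%. Ly6c+ cells at 24 h lie at 82.8%, and neutrophil-like and lymphocyte-like cells between 50.6% and 60.7%.

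In Ly6c+ cells with many UMIs of the pair, the excess of S100a8 over S100a9 was seen in most single cells. Of the 325 Ly6c+ cells at 24 h, 52 held at least 20 UMIs of the pair, and S100a8 made up a median of 92.2% of the pair in them (interquartile range 87.9% to 96.5%). In 47 of the 52 cells (90.4%, 79.0%-96.8%) S100a8 exceeded 75% of the pair, compared with 23 of 224 neutrophil-like cells of the same library (10.3%, 6.62%-15.0%) under the same minimum. Ly6c+ cells held a median of 1 S100a9 UMI (upper quartile 2), so the minimum of 20 was reached mainly through S100a8. That minimum by itself favours a high share in these cells. In cells with fewer UMIs of the pair the share of Ly6c+ cells was lower, with 61.5% (56.3%-66.5%) over the 155 cells with 1 to 4 UMIs and 81.8% (79.1%-84.3%) over the 97 cells with 5 to 19.

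Neutrophil markers were far below the level of neutrophil-like cells in these 52 cells. Retnlg was 20.7 CPM, Cxcr2 20.7 CPM and G0s2 28.5 CPM, against 2973, 523 and 2470 CPM in neutrophil-like cells at 24 h. In the other 273 Ly6c+ cells Retnlg was 16.8 CPM and G0s2 17.9 CPM, with overlapping intervals, whereas Cxcr2 was 3.92 CPM (1.58-8.08), below the 8.95-40.8 CPM interval of the 52 cells (8 UMIs). Hp, which neutrophils also express, was 1137 CPM (1033-1249) in the 52 cells, 552 CPM (518-587) in the other Ly6c+ cells and 1511 CPM in neutrophil-like cells, and the part of neutrophil RNA in these differences was not tested. Compared with the other 273 Ly6c+ cells, they were richer in Ly6c2 (2658 CPM, 2497-2825, against 1844 CPM, 1781-1908) and in Chil3, a lectin of classical monocytes (4178 against 2642 CPM), and poorer in the interferon-induced chemokine Cxcl10 (243 CPM, 197-298, against 687 CPM, 649-727). S100a6 was 4147 CPM (3946-4355) against 2873 CPM and S100a11 2360 CPM (2209-2518) against 1420 CPM. 5 of the 52 cells were among the cells with the highest doublet scores, and the share of S100a8 in all Ly6c+ cells was 85.6% without such cells.

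**Figure D4:**
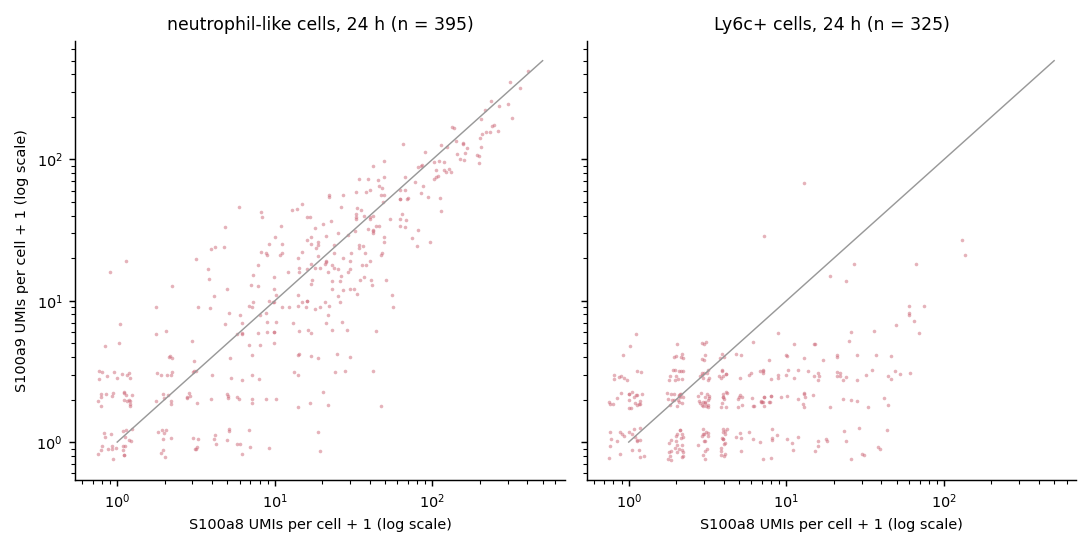
S100a8 UMIs (x axis) against S100a9 UMIs (y axis) per cell, each plus 1 on a log axis, in the 395 neutrophil-like (left) and 325 Ly6c+ (right) cells of the 24 h library, with random jitter so that equal counts do not hide each other and a grey line at equality. Neutrophil-like cells lie along the line, whereas most Ly6c+ cells with many S100a8 UMIs lie below it.

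The remaining 4 genes were well above 0 in monocyte/Mφ-like cells of each library and were higher at 24 h. S100a6 was 576 CPM (511-647) in 139 naïve cells, 2761 CPM (2727-2796) in 1540 cells at 24 h and 1398 CPM (1357-1440) in 577 cells at 72 h. S100a4 was 355, 1091 and 755 CPM, S100a10 312, 1067 and 591 CPM, and S100a11 296, 1071 and 551 CPM. Each gene was thus lowest in the naïve library and highest at 24 h, with no overlap of the intervals.

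The ratio of 24 h over naïve monocyte/Mφ-like cells was 4.79 for S100a6 (4.26-5.41), 3.62 for S100a11 (3.07-4.29), 3.42 for S100a10 (2.91-4.03) and 3.07 for S100a4 (2.65-3.59). For S100a8 it was 32.9 (17.9-68.6), with 10 UMIs in the naïve cells and beside a ratio of 26.9 in lymphocyte-like cells. S100a9, with 3 UMIs in the naïve cells, was also higher, beside a ratio of 17.1 in lymphocyte-like cells. All 6 members were at least 2-fold higher, compared with 11.5% of 2815 genes (8.31% lower), and the median log2 ratio was 2.03 over the members and 0.21 over all genes tested. Between 72 h and 24 h the ratios were 0.506 for S100a6 (0.490-0.523), 0.514 for S100a11, 0.554 for S100a10 and 0.692 for S100a4. No member passed a 2-fold ratio in this comparison, in which 3.71% of 2697 genes were higher and 4.71% lower. Relative to naïve cells, 4 members were at least 2-fold higher at 72 h (S100a4, S100a6, S100a8 and S100a9), compared with 2.35% of 2637 genes (4.06% lower).

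Different cells made up the monocyte/Mφ-like class in the 3 libraries. In the naïve library, Cx3cr1+ (72) and Cd206+ (27) cells were the largest of its subsets. At 24 h the largest were Fabp5+ (431) and Ly6c+ cells (325), the Ltc4s/Klk8 cluster (270) and the low-depth Hnrnpa0/Gm42418 cluster (241), and at 72 h Cd206+ (245) and Timp2+ Mφs (129). A subset led by the B cell genes Cd79a and Ebf1 held 11, 21 and 17 cells. Ratios of the class therefore mix a change of cells with a change within cells, and these cannot be told apart for subsets present in 1 library only.

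The 4 genes differed among Mφ subsets of the same library. At 72 h, Timp2+ Mφs had 1732 CPM of S100a4, 3026 CPM of S100a6, 1389 CPM of S100a10 and 703 CPM of S100a11, whereas Cd206+ Mφs had 158, 369, 209 and 281 CPM. The ratio was 10.9 for S100a4 (9.41-12.8), 8.21 for S100a6 (7.42-9.10), 6.63 for S100a10 (5.78-7.63) and 2.50 for S100a11 (2.17-2.89). S100a8 and S100a9 were also higher in Timp2+ Mφs, with ratios of 2.19 and 2.18.

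In the naïve library, Cx3cr1+ Mφs, which were led by Cx3cr1, Cd81 and Tmem119 but also by the immunoglobulin gene Igkc, had lower levels than Cd206+ Mφs. In 72 cells, 0 of 220284 UMIs were S100a4, which allows up to 13.6 CPM (3 counts). S100a6 was 18.2 CPM (4.95-46.5), S100a10 68.1 CPM (38.1-112) and S100a11 168 CPM (118-232). The naïve Cd206+ Mφs were higher for each, with 104 CPM of S100a4 (49.9-191), 281 CPM of S100a6, 302 CPM of S100a10 and 343 CPM of S100a11. At 72 h, 20 Cx3cr1+ cells showed 124 CPM of S100a4, of which 1 cell held 11 of 14 UMIs (28.9 CPM without it), 203 CPM of S100a6, 70.7 CPM of S100a10 and 327 CPM of S100a11.

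Among monocyte/Mφ subsets of at least 20 cells at 24 h, S100a4, S100a6 and S100a10 were highest in the Ltc4s/Klk8 cluster, which was also led by Arg1 and Timp1. There S100a4 was 2258 CPM (2180-2338), S100a6 5116 CPM (4998-5236), S100a10 1922 CPM (1850-1996) and S100a11 1228 CPM (1170-1287). S100a11 was higher in the Mmp12/Cxcl3 cluster (1753 CPM, 1570-1952) and in Ly6c+ cells (1587 CPM, 1534-1641). Ly6c+ cells had 1336 CPM of S100a4, 3099 CPM of S100a6 and 1035 CPM of S100a10, and Fabp5+ cells 626, 1977 and 970 CPM, with 799 CPM of S100a11. Ly6c+ cells exceeded Fabp5+ cells 2.14-fold in S100a4 (2.01-2.26), 1.99-fold in S100a11 (1.88-2.09) and 1.57-fold in S100a6 (1.51-1.62), whereas S100a10 was near equal (1.07, 1.01-1.13).

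In the 4 subsets with at least 20 cells at both 24 h and 72 h, the 72 h over 24 h ratio of S100a6 was nearer to 1 than in the whole class (0.506). It was 1.01 in Ly6c+ cells (0.922-1.11), 0.817 in the Hnrnpa0/Gm42418 cluster (0.668-0.990), 0.811 in the H2-DMb1/H2-Ab1 cluster (0.747-0.879) and 0.686 in the Mmp12/Cxcl3 cluster (0.586-0.8). S100a4 had ratios of 1.33 (1.17-1.51), 1.04, 0.933 and 1.44 in the same subsets. In Cd206+ Mφs the 72 h over naïve ratio was 1.31 for S100a6 (0.89-2.01) and 0.694 for S100a10 (0.472-1.06). In Cx3cr1+ cells, in contrast, S100a6 was 11.2-fold higher at 72 h (3.83-44.5), from 4 naïve UMIs. S100a8 and S100a9 were 37.0- and 35.1-fold higher in the same cells. Their levels of 168 and 159 CPM lay below the 225 and 219 CPM of lymphocyte-like cells at 72 h. The part of free RNA in the S100a6 ratio was not tested.

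**Figure D5:**
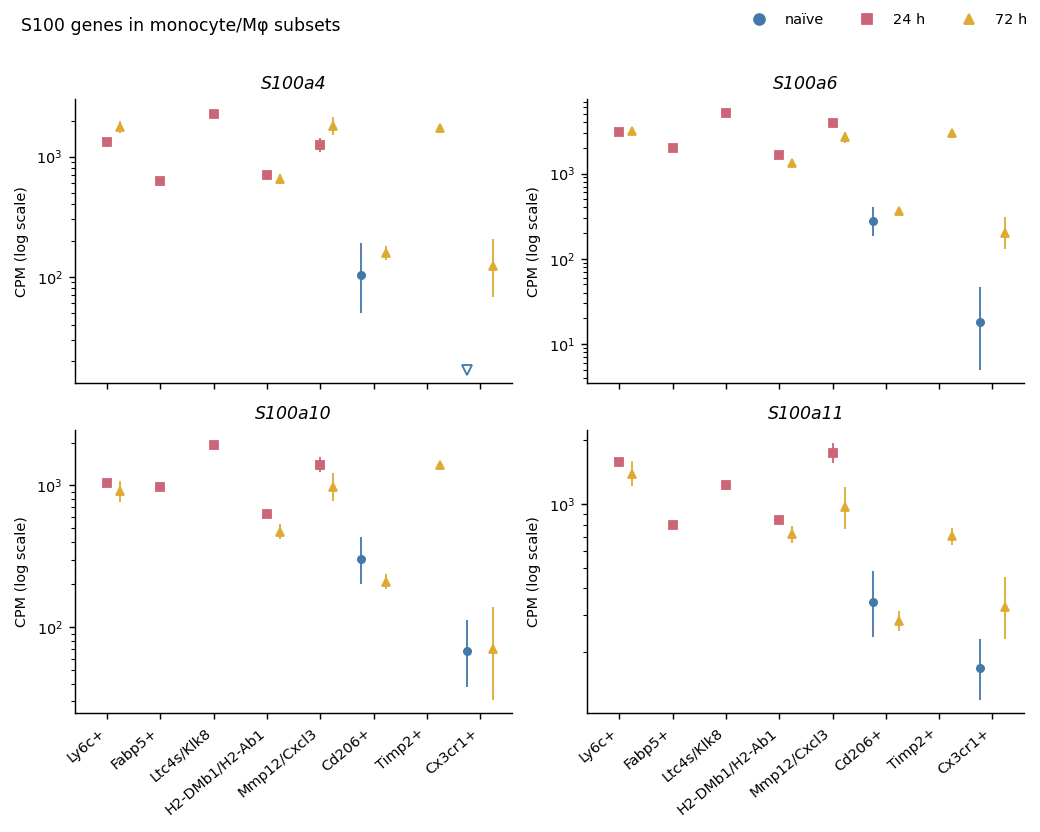
Level of S100a4, S100a6, S100a10 and S100a11 (CPM, log axis, with its own scale in each panel) in monocyte/Mφ subsets of the naïve (blue circle), 24 h (red square) and 72 h (yellow triangle) libraries with at least 20 cells, with exact 95% Poisson intervals. At 72 h Timp2+ Mφs lie above Cd206+ Mφs for all 4 genes, and the open triangle marks the upper bound for 0 UMIs of S100a4 in naïve Cx3cr1+ cells.

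Anxa2, the gene of the S100a10 partner annexin A2, had the same order as S100a10 in the Mφ groups named here. These are some of the subsets only, and Anxa2 and S100a10 were not compared over all of them. Anxa2 was 1587 CPM in the Ltc4s/Klk8 cluster at 24 h, 1095 CPM in Timp2+ Mφs and 153 CPM in Cd206+ Mφs at 72 h, and 9.08 CPM in naïve Cx3cr1+ cells. Between classes they did not follow each other. Neutrophil-like cells, the class with the lowest S100a10, had 957 CPM of Anxa2 at 24 h and 1510 CPM at 72 h. T cell/ILC-like cells, the class with the highest S100a10, had 200 CPM of Anxa2 at 72 h, below the 487 CPM of monocyte/Mφ-like cells.

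Of 23 partner and receptor genes, all in the tables, 16 were at a level that allowed comparison in monocyte/Mφ-like cells between 24 h and naïve. 3 were at least 2-fold higher (Anxa1, Anxa2 and Lcn2, an iron-sequestering protein) and 0 lower, against 11.5% of all 2815 genes higher and 8.31% lower, and the median log2 ratio was 0.38 over these genes and 0.21 over all. Anxa2 had a ratio of 4.40 (3.58-5.46) and Anxa1, the partner of S100a11, 3.53 (2.54-5.05). The other binding partners had lower ratios, with 1.38 for Cacybp (1.02-1.92), 1.25 for the S100a10-annexin scaffold Ahnak (1.02-1.56) and 0.596 for the myosin heavy chain Myh9 (0.441-0.821). Among calprotectin receptors, Tlr4 was 20.3 CPM in naïve and 41.4 CPM in 24 h monocyte/Mφ-like cells, Bsg had a ratio of 1.12 (0.940-1.34) and Emb of 1.59 (1.24-2.08). Ager (RAGE) was hardly detectable, with 0, 6 and 1 UMIs in monocyte/Mφ-like cells of the 3 libraries. Between 72 h and 24 h, 0 of 16 genes were higher and 3 lower (Cd36, Cd68 and Lcn2), against 3.71% and 4.71% of all 2697 genes, and the median log2 ratio was -0.33 over the 16 genes and -0.17 over all.

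In the naïve library, DC-like cells had higher S100a4, S100a6, S100a10 and S100a11 than monocyte/Mφ-like cells. These levels differed less between libraries in DC-like cells. At 24 h monocyte/Mφ-like cells were the higher class for S100a6 (2761 CPM) and S100a10 (1067 CPM). In DC-like cells S100a6 was 1756 CPM (1478-2070) in 21 naïve cells, 2280 CPM at 24 h and 2057 CPM at 72 h. S100a11 was 1569, 1568 and 1424 CPM, the most even of the members, and S100a10 was 573, 614 and 746 CPM. S100a4 was 623 CPM (462-821), 1241 CPM and 1190 CPM, a 24 h over naïve ratio of 1.99 (1.5-2.70). Past 2-fold, the members higher at 24 h were S100a8 and S100a9, compared with 14.2% of 2935 genes (9.3% lower), both with 24 h intervals that overlapped those of lymphocyte-like cells. The same 2 members were higher at 72 h than in naïve cells, where 11.3% of 2830 genes were higher and 9.33% lower. Between 72 h and 24 h 0 members passed 2-fold in either direction (2.39% of 2761 genes higher, 3.33% lower).

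T cell/ILC-like cells were the class with the highest S100a10 in each library. Their S100a10 interval overlapped that of DC-like cells in the naïve library (419-764) and that of monocyte/Mφ-like cells at 24 h. Their S100a4 and S100a6 levels depended on the cluster. S100a10 was 791 CPM (713-875) in naïve cells, 1241 CPM (1087-1411) at 24 h and 1276 CPM (1171-1388) at 72 h, and S100a11 821, 1039 and 835 CPM. S100a6 was 278 CPM in naïve cells, 1384 CPM at 24 h and 981 CPM at 72 h, and S100a4 114, 562 and 599 CPM. 4 members (S100a4, S100a6, S100a8 and S100a9) were at least 2-fold higher at 24 h than in naïve cells, compared with 9.79% of 3329 genes (7.12% lower), and the same 4 at 72 h (5.81% of 3134 genes higher, 5.01% lower). Of these, S100a8 and S100a9 are the gauge of free RNA in lymphocyte-like cells, so they are not read as a result about this class. Between 72 h and 24 h 0 members passed 2-fold (3.74% of 3212 genes higher, 6.6% lower).

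Naïve T cell/ILC-like cells were mostly of a cluster led by Gzma and Gzmb, genes of cytotoxic granules (130 of 188 cells), and those at 24 h mostly of a cluster led by Thy1 and Ctla2a (65 of 71). In naïve cells of the Gzma/Gzmb cluster S100a6 was 15.6 CPM and S100a4 3.13 CPM (1 UMI), whereas S100a10 was 575 CPM and S100a11 722 CPM. In naïve cells of the Thy1/Ctla2a cluster S100a6 was 817 CPM (681-972), S100a4 341 CPM (255-446) and S100a10 1235 CPM (1067-1423). Within the Thy1/Ctla2a cluster the 24 h over naïve ratio was 1.82 for S100a6 (1.47-2.27) and 1.77 for S100a4 (1.26-2.51), compared with 4.98 and 4.95 for the class. At 72 h, the 28 cells of the Gzma/Gzmb cluster showed 5 UMIs of S100a6.

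Of the named classes with at least 20 cells, B cell-like cells had the lowest levels of S100a4 and S100a6 in the naïve library. S100a4 was 2.13 CPM (1 UMI in 225 cells), 58.2 CPM (4 UMIs) at 24 h and 113 CPM (13 UMIs) at 72 h. 1 cell held 53.8% of the S100a4 UMIs at 72 h, and the level was 55.5 CPM without it. S100a6 was 38.4 CPM (22.7-60.6), 276 CPM (166-432) and 818 CPM (661-1001), and without the cell with the most S100a6 UMIs 17.3 CPM in naïve cells, 204 CPM at 24 h and 435 CPM at 72 h. S100a10 was 271, 320 and 331 CPM and S100a11 234, 233 and 374 CPM. 4 members (S100a4, S100a6, S100a8 and S100a9) were at least 2-fold higher at 24 h than in naïve cells, compared with 16.1% of 2702 genes (8.25% lower), and the same 4 at 72 h (12.9% of 2745 genes higher, 4.55% lower). Between 72 h and 24 h S100a6 and S100a9 were higher (16.8% of 3019 genes higher, 15.9% lower). S100a8 and S100a9 serve as the gauge of free RNA here too, so their calls are not read as a result about B cell-like cells. S100a6 and S100a4 were abundant in the other cells of the 24 h and 72 h libraries, and the part of free RNA in their levels in B cell-like cells was not tested. Monocyte/Mφ markers (16 genes) summed to 405 CPM in naïve B cell-like cells, 1644 CPM at 24 h and 2855 CPM at 72 h, and neutrophil markers to 4.26, 102 and 104 CPM.

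Ordered by level at 24 h among the 5 named classes, S100a4 was highest in DC-like and monocyte/Mφ-like cells (1241 and 1091 CPM), followed by T cell/ILC-like (562 CPM), neutrophil-like (104 CPM) and B cell-like cells (58.2 CPM), the latter 2 with overlapping intervals. For S100a10 the order was T cell/ILC-like (1241 CPM), monocyte/Mφ-like (1067 CPM), DC-like (614 CPM), B cell-like (320 CPM) and neutrophil-like cells (124 CPM). Of these classes, S100a11 was highest in neutrophil-like cells (5123 CPM), then in DC-like cells (1568 CPM), with monocyte/Mφ-like and T cell/ILC-like cells overlapping (1071 and 1039 CPM) and B cell-like cells lowest (233 CPM), whereas the unnamed Ptgs2/Siglecf cluster had 2978 CPM. S100a6 was 3671 CPM in neutrophil-like, 2761 CPM in monocyte/Mφ-like, 2280 CPM in DC-like, 1384 CPM in T cell/ILC-like and 276 CPM in B cell-like cells.

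Across 14 groups of class and library, which share 3 libraries and are not independent, the members fell into different patterns (Spearman's rho of log2(CPM + 10), given as a description). S100a8 and S100a9 had a rho of 0.94, S100a6 and S100a11 0.91, S100a6 and S100a8 0.79, S100a4 and S100a10 0.67, and S100a10 and S100a11 -0.01. Of 2860 genes outside the family, Vim, an intermediate filament, was most like S100a4 (0.98), followed by Gsto1 and Hint1. Retnlg, Tarm1 and Gm5483 were the 3 most like both S100a8 and S100a9 (up to 0.93). Myd88, the adaptor of Toll-like receptors, was most like S100a6 (0.97), followed by Actr2 and Cdc42. For S100a10 these were Ndufv3 (0.95), Glrx5 and Higd1a, and for S100a11 Lrrfip2 (0.96), Scand1 and Atg3.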

How the data were processed

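Per the labels, the authors prepared 10x 3′ v2 libraries, aligned and counted with Cell Ranger 3.0.2 (GRCm38/mm10) and left out cells under 200 genes or over 10% mitochondrial UMIs. The deposited values are raw UMI counts per gene and cell, used here without a further filter. The number of mice per library is not in the labels.

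Clusters were found after log-normalization (Seurat 5.3.0, R 4.3.3) from 2000 variable genes without S100 genes, 30 principal components (20 for monocytes/Mφs), 20 neighbours and a resolution of 0.8, which gave 16 clusters and 10 monocyte/Mφ subsets. Names required 3 or more markers at 2-fold or more over the remaining cells, each found in at least 10% of cells in the cluster (pseudocount 10 CPM). This rule and the class of dividing cells were set after the clusters were seen. The members and gene lists were chosen with earlier results of these data known. Besides the members, named genes are the other S100 genes of at least 50 CPM in a class, 9 of the 23 partners, markers and, for each member, the 3 genes with the highest Spearman correlation among genes of at least 100 CPM in a group. Other genes were named after their values were seen.

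Levels are CPM of summed UMIs with exact Poisson intervals, shares have Clopper-Pearson and ratios exact conditional Poisson intervals (95%), and were computed in Python 3.11.15 (scipy 1.17.1, pandas 2.3.3, numpy 2.4.6). Genes of at least 50 CPM in either library were compared at a ratio of at least 2 or at most 0.5. Cells were thinned to 500 UMIs. The ratio intervals were tested on simulated data. Doublets were scored with Scrublet in scanpy 1.11.5, which called 16 of 4102 cells, and kept. An alternative removed the 54 highest scores (0.8% per 1000 cells). The other alternatives were stricter cells, resolutions of 0.5 and 1.2, S100 genes kept among the variable genes, the mean of each cell's CPM and a total without the 6 genes. Protein sequences were not used here.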

Additional observations from a re-analysis of the deposited data

Results flagged for a closer look

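Several S100 genes had ratios of opposite direction between cell classes from 24 h to 72 h. With 1 library per time point, none of these differences was tested. The 72 h over 24 h ratio of S100a11 was 2.01 (1.88-2.15) in neutrophil-like cells and 0.514 (0.488-0.541) in monocyte/Mφ-like cells. For S100a6 it was 1.67 in neutrophil-like cells and 2.96 (1.79-5.13) in B cell-like cells, against 0.506 in monocyte/Mφ-like cells. The B cell-like ratio was 2.13 (1.14-4.30) without the cell with the most S100a6 UMIs in each library. For S100a8 it was 1.60 in neutrophil-like cells and 1.76 (1.45-2.15) in DC-like cells, against 0.661 (0.623-0.701) in monocyte/Mφ-like cells. Without the cell with the most S100a8 UMIs in each library, the ratio of DC-like cells was 0.987 (0.776-1.25) and that of monocyte/Mφ-like cells 0.498 (0.465-0.533), so that the DC-like value rests on 1 cell. Different subsets made up the monocyte/Mφ-like class at 24 h and 72 h.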

How the results depend on the processing

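No paired analysis was possible because there is 1 library per time point and no test was run. Of the recomputed values, 48 stayed within the counting interval of the reported value and 13 did not, and 0 of the ratios changed direction. The S100a8 level of neutrophil-like cells at 24 h (36834 CPM) was 40860 CPM with stricter cells (500 genes or more, 5% mitochondrial UMIs or less), 31390 CPM as the mean of each cell's CPM, 39904 CPM without the 6 genes in the total and 35642 CPM with the Ptgs2/Siglecf cluster included, an alternative added after seeing the data. The 24 h over naïve ratios in monocyte/Mφ-like cells were 4.14 (S100a4), 6.25 (S100a6) and 4.15 (S100a10) as means of each cell's CPM. The S100a8 share of the pair in Ly6c+ cells at 24 h (82.8%), for which the alternatives were also added after seeing the data, was 85.6% without the highest doublet scores and, taken from the cluster of all cells with the most Ly6c2, 80.7% in the main setting, 79.1% with the stricter cells, 76.1% and 80.8% at resolutions of 0.5 and 1.2, and 80.9% with S100 genes among the variable genes. The low count of naïve S100a8 and S100a9 UMIs limits their ratios.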

Other observations

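Of the 5 other S100 genes in the tables, S100a13 and S100a1 reached 50 CPM in a class. S100a13, which takes part in the export of proteins without a signal peptide, was present in each class, with 243 CPM in naïve, 268 CPM in 24 h and 307 CPM in 72 h monocyte/Mφ-like cells. In T cell/ILC-like cells it was 292, 313 and 377 CPM, the last of which was its highest level in any class. In contrast to the 6 members, S100a1 was lower at 24 h in monocyte/Mφ-like cells, with 114 CPM (85.8-148) in naïve cells, 45.3 CPM (407 UMIs) at 24 h and 119 CPM (107-132) at 72 h. S100a3 and S100b were counted 33 and 5 times over all cells.

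Dividing cells, marked by Mki67, Top2a, Stmn1 and Pclaf, differed in their S100 levels between the naïve (52 cells) and the 72 h library (36 cells). S100a4 was 43.8 CPM in naïve and 831 CPM in 72 h dividing cells, a ratio of 19 (11.1-35.2), S100a6 68.8 and 1241 CPM (18, 11.7-29.1), S100a10 81.3 and 890 CPM (11, 7.32-17.1) and S100a11 160 and 757 CPM (4.75, 3.50-6.55). The make-up of these cells also differed, as the B cell gene Cd79a was detected in 78.8% of naïve and 22.2% of 72 h cells, and the Mφ gene C1qb in 23.1% and 86.1%, and the part of this in the ratios was not tested.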
